A study of Saccharomyces cerevisiae with 6 samples.

Results

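The genes described here encode yeast chromatin remodelling ATPases and their partner subunits. They are the ISWI-class ATPases ISW1 and ISW2, the Isw1 partners IOC2, IOC3 and IOC4, the Isw2 partner ITC1, and the ATPases CHD1, SNF2, STH1 and INO80. They were chosen by gene symbol, and all 10 were found among the 5449 S. cerevisiae genes measured, each with 1 probe set. IOC2 was picked because its signal was higher in one group, so its values are given as a description with no test. The other 9 were taken for their function, with earlier results of these data known.

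Total RNA was hybridised to 6 Affymetrix arrays, 3 per group. Yeast labelled BY4743, a MATa/α diploid with the alleles his3Δ1, leu2Δ0 and ura3Δ0 together with met15Δ0 and lys2Δ0, was grown at 25 °C for 2 days in YPD, a rich medium, to which 0.01% of the detergent SDS had been added. RNA of the control group came from untreated cells by the FastRNA Pro Red kit. The zymolyase group was incubated for 20 min at 25 °C with zymolyase, a mix of enzymes that breaks down wall glucan, before its RNA was taken with the MagExtractor kit. The design names both the response to zymolyase and the extraction method as its subject. Enzyme and kit changed together and cannot be told apart. The labels do not state whether samples of a group grew as separate cultures. The p-values therefore rest on the spread between these 3 samples, and that spread may be technical.

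Remodelling ATPases of the Snf2 family use ATP to slide, space or evict nucleosomes. Isw1 works in a complex with Ioc3 and in another with Ioc2 and Ioc4, Isw2 works with Itc1, and Chd1 acts largely alone. These enzymes space nucleosomes evenly over genes, and Isw1 with Ioc2 and Ioc4 helps keep nucleosomes in place behind RNA polymerase II. Snf2 drives the SWI/SNF complex, which opens promoters, and Sth1 drives the related and essential RSC complex. Ino80 drives a complex that places nucleosomes beside promoters and acts in DNA replication and repair.

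Some facts of the series bear on every value below. Median signals over genes were 552 to 677.6 by array, and log2 signals correlated at 0.953 to 0.985 between arrays of the same group and at 0.875 to 0.932 between groups. The ratio of the signal near the 3′ end to that near the 5′ end, averaged over 8 yeast control genes, lay between 1.49 and 1.99 in control and between 4.57 and 7.21 in zymolyase arrays. On the log2 scale the difference was 1.74 (SE 0.25), with an exact two-sided permutation p = 0.1 (the least that 3 against 3 arrays allow). ACT1, for actin, had log2 changes of -2.21 at the 5′ control probe set, -1.50 at the middle one and -0.11 at the 3′ one. The change of a gene also rose with its coding length, with a Spearman's rho of 0.34 across the 5449 genes, which are not independent replicates. The 4 alpha-specific genes, among them STE3, read 1485.4 to 7412.3 and the 7 a-specific genes, among them STE2, 8.0 to 133.8, against the diploid of the label. URA3 and LEU2, which the labelled alleles remove, read 1887.6 to 2664.8 and 370.9 to 836.1, so the genotype is given only as labelled. In RNA of whole cultures, fewer cells of a type and less RNA per cell cannot be told apart.

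Of the 10 genes, 9 had a higher signal on all 3 zymolyase arrays than on any control array, and IOC4 did not differ in this way. Over all genes 27.2% had groups that did not overlap with zymolyase higher, and 25.7% with zymolyase lower. The log2 change, zymolyase minus control, ran from -0.01 for IOC4 to 2.31 for IOC2, with a median of 1.55, against 0.04 for all genes. At least 2-fold higher were 8 of the 10, among them IOC2, which was picked for its rise. The smallest change of these 8, that of ISW2, ranked 553 among the 5449 genes. Of the 9 genes other than IOC2, 8 rose and 0 fell past the threshold of an adjusted p of 0.05 in the genome-wide limma fit. Over all genes 22.5% rose and 20.0% fell. Since the genes were proposed with this contrast known, nothing is read from these counts or from the median. The genes are long (median coding length 3592.5 bases, where all genes have 1236), and 7 of them lie in the longest of 10 equal length classes, where 53.4% of genes rose and 4.04% fell. The 3′ to 5′ difference of 1.74 moved with the same groups, and its part in these changes was not tested.

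**Figure D1:**
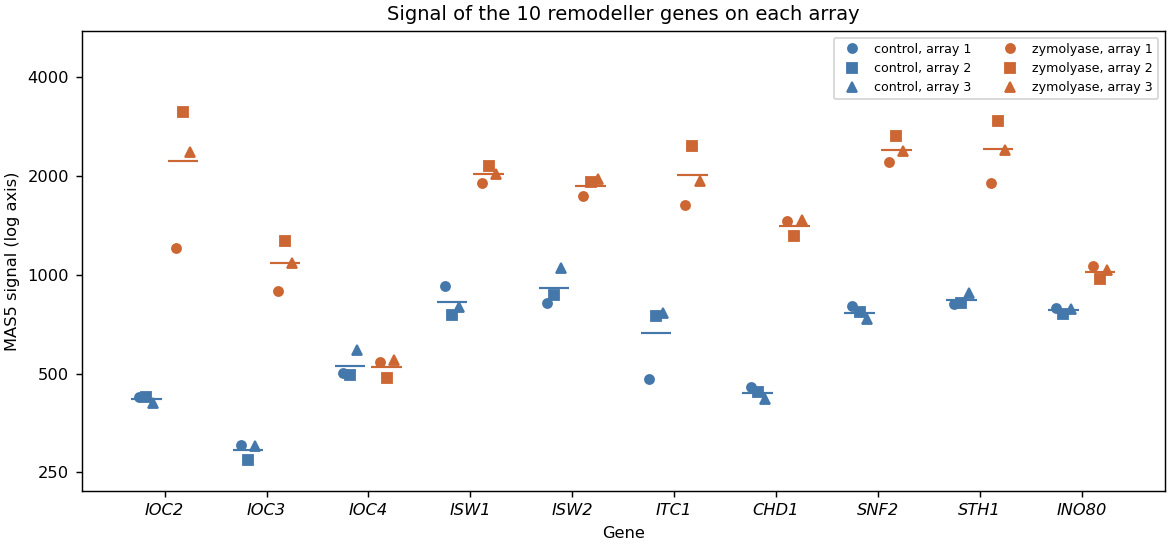
MAS5 signal (log axis) of each of the 10 genes on the 3 control arrays (blue) and 3 zymolyase arrays (orange), with the marker shape giving the array number and a line at the group mean. The groups lie apart for every gene except IOC4, and the IOC2 zymolyase values range from 1201.9 to 3113.9.

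ISW1 and its partners came first. ISW1 (YBR245C), the ATPase, had signals of 925.2, 754.8 and 798.4 on control arrays 1, 2 and 3 and of 1900.4, 2144.6 and 2022.9 on zymolyase arrays 1, 2 and 3. The zymolyase values lay close together and well above every control value. ISW1 rose 2.45-fold (log2 1.30, SE 0.14, adjusted p = 0.00102).

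IOC3 (YFR013W), the Isw1 partner of the complex that spaces nucleosomes, had control signals of 303.7, 271.9 and 300.6 and zymolyase signals of 890.7, 1268.7 and 1085.2. It rose 3.67-fold (log2 1.88, SE 0.17, adjusted p = 9.25e-04), the largest rise among the 9 genes taken for their function. The 3 pairs of same-numbered arrays gave log2 changes of 1.55, 2.22 and 1.85.

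IOC2 (YLR095C) encodes a PHD-finger protein that joins Isw1 together with Ioc4. Its control signals were nearly identical, at 423.4, 423.1 and 406.0, whereas its zymolyase signals were 1201.9, 3113.9 and 2354.2. The zymolyase arrays thus all lay above control but spread widely, with array 1 far below arrays 2 and 3. The group means were 417.5 ± 9.96 and 2223 ± 963 (SD, n = 3), 4.95-fold apart (log2 2.31, SE 0.32). Without zymolyase array 1 the log2 change was 2.70. IOC2 ranked 17 of 5449 by its change, just below BUD22 (2.33) and HCA4 (2.32), which serve small-subunit ribosome assembly. Just below it came KEX1 (2.27), a protease gene, and FMT1 (2.25), whose mean signals of 6.50 and 13.8 lay near the background.

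IOC4 (YMR044W), whose protein carries a PWWP domain that recognises methylated lysine 36 of histone H3, did not share the higher signal. Its control signals were 502.0, 493.2 and 589.3, and its zymolyase signals 540.7, 484.2 and 549.7. The groups overlapped, and the log2 change was -0.01 (SE 0.15, adjusted p = 0.977). IOC4 is the shortest of the 10 genes, at 1428 bases, and its change was above that of 46.3% of genes in its own length class.

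Partners of the same ATPase were compared by the difference of their changes within arrays. The 5 pairs were chosen by complex or paralogy after the values had been seen, so their p-values are given as a description. The change of IOC4 was below that of ISW1 by 1.30 on the log2 scale (difference -1.30, SE 0.16), and that of IOC3 was above it by 0.58 (SE 0.11). Both differences gave the smallest exact two-sided permutation p of this design (p = 0.1, 0.167 adjusted over the 5 pairs), which cannot pass the threshold. With the length trend removed the differences were -0.79 and 0.72.

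ISW2 (YOR304W), the other ISWI-class ATPase, had control signals of 820.0, 866.9 and 1049.7 and zymolyase signals of 1729.2, 1907.6 and 1948.4. It rose 2.05-fold (log2 1.04, SE 0.15, adjusted p = 0.00196). ITC1 (YGL133W), the large subunit that pairs with Isw2, had control signals of 481.5, 749.3 and 765.7 and zymolyase signals of 1630.7, 2466.6 and 1930.4. Its array 1 was the lowest of both groups. ITC1 rose 3.04-fold (log2 1.60, SE 0.23, adjusted p = 0.00200). The changes of ITC1 and ISW2 differed by 0.57 (SE 0.21, exact permutation p = 0.1, 0.167 adjusted over the 5 pairs).

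The remaining subunits of the Isw2 complex are small histone-fold proteins, and neither gene passed. DLS1 changed by -0.26 (log2, SE 0.16, adjusted p = 0.218). DPB4, which also serves DNA polymerase epsilon, changed by 0.35 (SE 0.19, adjusted p = 0.186), with overlapping groups. With the replicate number as a block DPB4 passed (adjusted p = 0.0422), as it did with the length trend removed, where its change was 0.65.

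ISW1 and ISW2, which are paralogs, had changes 0.26 apart (ISW2 minus ISW1 -0.26, SE 0.17, exact permutation p = 0.4, equally 0.4 adjusted over the 5 pairs). Their probe sets are separate, and how far each reads the other transcript was not tested.

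CHD1 (YER164W), a nucleosome-spacing ATPase with chromodomains, had control signals of 453.4, 440.3 and 417.2 and zymolyase signals of 1453.9, 1310.5 and 1465.7. It rose 3.22-fold (log2 1.69, SE 0.13, adjusted p = 8.51e-04). Unlike IOC2, its 3 zymolyase values lay within 0.16 of each other on the log2 scale, against 0.42 for the median gene and 1.37 for IOC2. The same-numbered pairs gave changes of 1.68, 1.57 and 1.81.

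SNF2 (YOR290C), the ATPase of SWI/SNF, had control signals of 800.1, 767.9 and 730.1 and zymolyase signals of 2194.5, 2636.7 and 2372.8. It rose 3.13-fold (log2 1.65, SE 0.14, adjusted p = 8.54e-04). STH1 (YIL126W), the ATPase of RSC, had control signals of 813.2, 821.4 and 876.0 and zymolyase signals of 1895.4, 2931.4 and 2385.6. Its zymolyase values were spread more than those of SNF2, and all lay above control. STH1 rose 2.83-fold (log2 1.50, SE 0.18, adjusted p = 0.00110). The changes of these paralogs lay 0.14 apart (STH1 minus SNF2 -0.14, SE 0.13, exact permutation p = 0.4, equally 0.4 adjusted over the 5 pairs).

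INO80 (YGL150C) had the smallest of the 8 rises that passed. Its control signals were 789.1, 756.6 and 787.7, and its zymolyase signals 1060.0, 971.5 and 1029.8, so the groups did not overlap but lay close. It rose 1.31-fold (log2 0.39, SE 0.13, adjusted p = 0.0423). This call was lost whichever single array was left out (adjusted p = 0.0524 to 0.136) and with each array centred on its median (0.169). It was also lost with quantile normalization (0.133) and when all probe sets other than controls were fitted (0.0839). With the length trend removed the change was negative, at -0.24 (adjusted p = 0.138).

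Coding length was set beside each change. IOC2 and IOC3, at 2439 and 2364 bases, were above 99.4% and 98.2% of the genes of their length class, which had a median change of 0.44. Since IOC2 was picked for its rise, nothing is read from its place. The longest class had a median change of 0.60, and there CHD1, SNF2, ITC1 and STH1 were above 97.1%, 96.1%, 96.0% and 92.7% of genes. ISW1 and ISW2 were above 85.9% and 74.3% of that class. INO80, at 4470 bases one of the longest of the 10, was above only 38.7% of it.

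**Figure D2:**
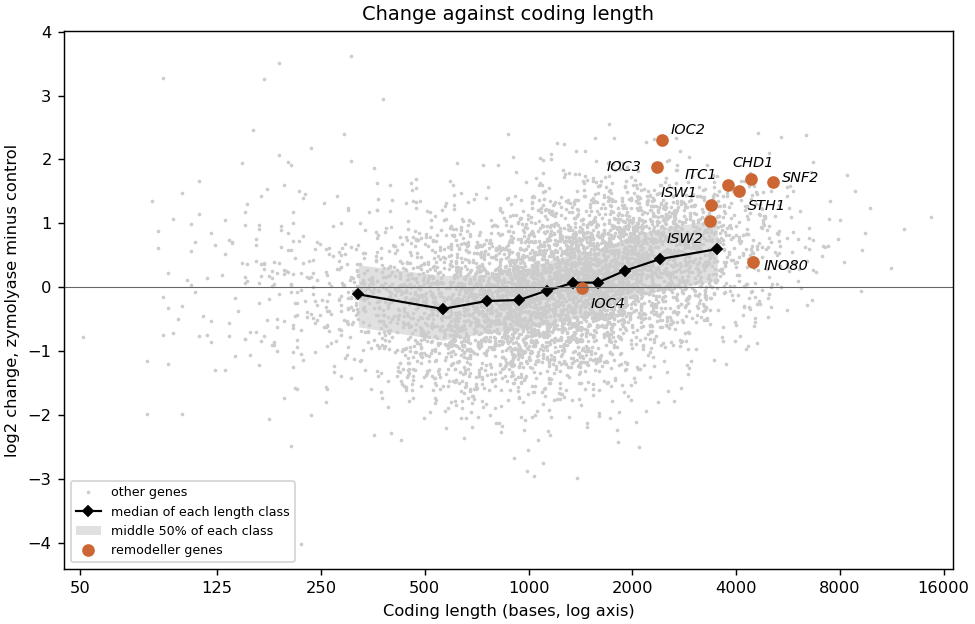
Log2 change, zymolyase minus control, against coding length in bases (log axis) for all 5449 genes (grey), the 10 remodeller genes (orange), and the median and middle 50% of 10 length classes (black line and band). The class median goes from -0.33 in the second shortest class to 0.60 in the longest, and IOC2, IOC3, CHD1, SNF2, ITC1, STH1 and ISW1 lie above the upper edge of their class.

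With the trend of signal on length subtracted from each array, the changes of the 10 genes shrank to a median of 0.93. It was 0.89 without IOC2, against 0.02 for all genes. The change was 1.89 for IOC2 (SE 0.33), 1.47 for IOC3, 1.06 for CHD1, 1.02 for ITC1, 0.97 for SNF2 and 0.89 for STH1. ISW1 came to 0.75 and ISW2 to 0.49. Of the 9 genes other than IOC2, 7 still rose past the threshold and 0 fell, where over all genes 18.4% rose and 19.7% fell. These genes were proposed with this contrast known, so nothing is read from this count either. The call of ISW2 was the closest to the threshold (adjusted p = 0.0335), and INO80 and IOC4 did not pass.

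**Figure D3:**
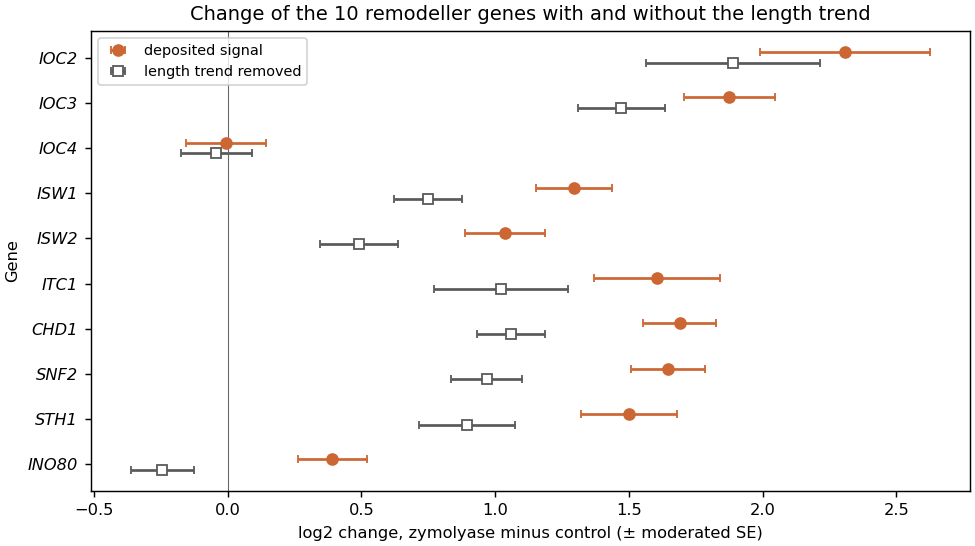
Log2 change with its moderated SE for each of the 10 genes, on the deposited signal (orange circles) and with the length trend removed (open squares). Every change is lower with the trend removed, INO80 crosses 0 from 0.39 to -0.24, and IOC4 stays near 0.

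The spread within the zymolyase group had a shared form in part of the genes. Zymolyase array 1 gave the lowest and zymolyase array 2 the highest of the 3 zymolyase values for 6 of the 10 genes, namely IOC2, IOC3, ISW1, ITC1, SNF2 and STH1. Over all genes, whether they rose, fell or did not change, 17.3% had this order. Genes read on the same arrays are not independent, and IOC2 was picked for its rise, so nothing is read from the count. For ISW2 array 1 was also the lowest, whereas CHD1, INO80 and IOC4 were lowest on array 2. The 3′ to 5′ ratio followed the first order, at 4.57 on zymolyase array 1, 7.21 on array 2 and 6.71 on array 3, and its part in the order was not tested. Without the arrays numbered 1 in both groups 8 of the 9 genes other than IOC2 rose and 0 fell. Over all genes 32.6% then rose and 28.3% fell, and nothing is read from this count.

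The genes whose profile over the 6 arrays was most like that of IOC2 were sought among genes brighter than the median gene. Likeness was the root mean square distance between log2 signals after subtracting each gene's own mean. The 5 closest genes were JJJ1 (0.11), a co-chaperone of large ribosomal subunit assembly, RPC53 (0.14), a subunit of RNA polymerase III, PXR1 (0.21), of rRNA and snoRNA maturation, YHL008C (0.22) and HO (0.25), the endonuclease of mating-type switching. JJJ1, for example, read 882.2, 2331.4 and 1647.3 in zymolyase and 268.4, 297.3 and 330.4 in control arrays, and a likeness in these values is what the choice of the 5 genes fixed. Among the other 9 remodeller genes IOC3 was the nearest to IOC2, at a distance of 0.35, and IOC4 the farthest, at 1.24. IOC3 held place 21 among all genes, the dim ones included. The distance includes the group difference for which IOC2 was picked, so nothing is read from these places.

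Other subunits of the remodelling complexes, other Snf2-family ATPases and genes that act beside them were taken from lists chosen by function, of which 76 genes were measured. Of these, 37 rose, 7 fell and 32 did not pass by limma, with a median log2 change of 0.39 and a median coding length of 1584 bases. The shares over all genes were 22.5% for rises and 20.0% for falls. Once the length trend was removed, 27 rose and 7 fell, with a median of 0.21, where over all genes 18.4% rose and 19.7% fell. The count of falls rested on few arrays, being 2 without control array 3 or zymolyase array 3 and 3 without control array 2 or zymolyase array 2.

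**Figure D4:**
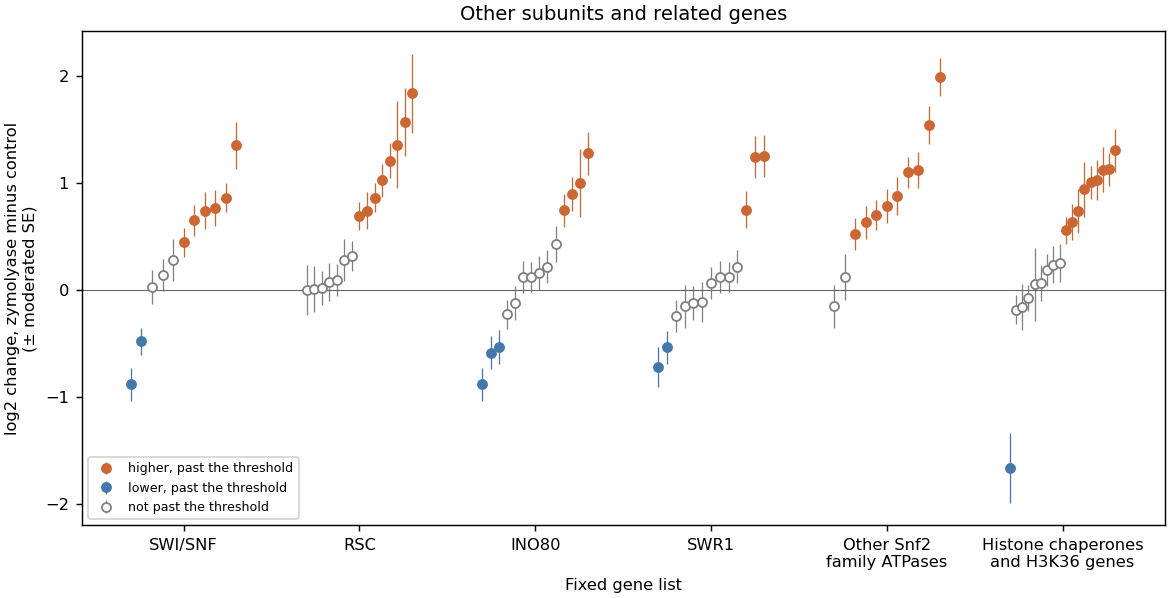
Log2 change with its moderated SE for each measured gene of 6 lists, filled where it passed the threshold (orange higher, blue lower), with genes shared by lists drawn in each. RSC and the other Snf2-family ATPases have 0 genes lower past the threshold, and SWI/SNF, INO80 and SWR1 have genes in both directions. Of all genes 22.5% were higher and 20.0% lower past the threshold. SWC7, read near the background with a change of -2.27 (SE 1.82), is left out.

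The RSC partners of STH1 went up or did not pass. Of 15 measured, 8 rose, 0 fell by limma (also 0 at an unadjusted p under 0.05) and 7 did not pass, with a median log2 change of 0.69. Over all genes 22.5% rose and 20.0% fell. RSC2, a bromodomain subunit that replaces its paralog Rsc1 in part of the complexes, had control signals of 377.3, 373.4 and 431.0 and zymolyase signals of 737.8, 2277.6 and 1641.9. It showed the low array 1 seen for IOC2. RSC2 rose 3.57-fold (log2 1.84, SE 0.37, adjusted p = 0.00609), and RSC8, an essential core subunit, 2.97-fold (1.57, SE 0.32, adjusted p = 0.00649). With the length trend removed 9 of the 15 rose, 0 fell and the median was 0.61, where over all genes 18.4% rose and 19.7% fell.

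The SWI/SNF partners of SNF2 were mixed. Of 11 genes, 6 rose, 2 fell and 3 did not pass, with a median log2 change of 0.44. Among all genes the shares were 22.5% for rises and 20.0% for falls. With the length trend removed 4 of the 11 rose and 2 fell, with a median of 0.24, beside 18.4% and 19.7% of all genes. ARP7, ARP9 and RTT102, 3 of the 11, are shared with RSC. SWP82 rose 2.55-fold (log2 1.35, SE 0.22, adjusted p = 0.00270), and ARP9, an actin-related protein, 1.82-fold (0.86, SE 0.14, adjusted p = 0.00272). TAF14, a small subunit shared with INO80 and with general transcription factors, fell 1.84-fold (-0.88, SE 0.15, adjusted p = 0.00355). SNF11, at 510 bases the second shortest of these genes, fell 1.40-fold (-0.48, SE 0.13, adjusted p = 0.0184), a call lost with the length trend removed (-0.20, adjusted p = 0.235), and also without array 2 or 3 of either group (0.0514 to 0.0751).

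Of 14 INO80 subunits 4 rose, 3 fell and 7 did not pass, with a median log2 change of 0.14. The shares that rose and fell were close to the 22.5% and 20.0% of all genes. ARP5, an actin-related protein, rose 2.42-fold (log2 1.27, SE 0.20, adjusted p = 0.00275). IES1 rose 2.00-fold (SE 0.32 on the log2 scale, adjusted p = 0.0356) with groups that overlapped, and its call did not hold throughout. It was lost with the length trend removed (0.138), though not when the replicate block was added to that fit (0.00580). It was also lost with median centring (0.0672), with quantile normalization (0.0753), and when control array 1, control array 2, zymolyase array 2 or zymolyase array 3 was left out (0.0746 to 0.127). Besides TAF14, NHP10, a DNA-binding subunit with an HMG box, fell 1.50-fold (-0.59, SE 0.15, adjusted p = 0.0170), a call lost with the length trend removed (-0.28, adjusted p = 0.143) and without control array 2 or 3 or zymolyase array 3 (0.0593 to 0.0726).

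The SWR1 complex deposits the histone variant H2A.Z and shares ARP4, ACT1, RVB1 and RVB2 with INO80. Among its 14 genes were 3 rises and 2 falls, and the median was -0.03. For comparison, 22.5% of all genes were called higher and 20.0% lower. Subtracting the length trend gave 2 of the 14 called higher and 3 called lower, beside 18.4% and 19.7% of all genes. SWR1 itself, a gene of 4545 bases, had a log2 change of -0.15 (SE 0.20, adjusted p = 0.571), and with the length trend removed it fell (-0.79, adjusted p = 0.0169). BDF1, a bromodomain protein, rose 2.38-fold (1.25, SE 0.20) and SWC3 2.37-fold (1.24, SE 0.20). SWC4 fell 1.65-fold (-0.72, SE 0.19) and ARP6 1.45-fold (-0.54, SE 0.16), and both falls were lost without some single arrays.

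Of 11 other Snf2-family ATPases, SWR1 included, 9 rose, 0 fell by limma (also 0 at an unadjusted p under 0.05) and 2 did not pass, with a median log2 change of 0.78. They are about as long as the 10 genes, with a median of 3396 bases. With the length trend removed 3 of the 11 rose and 1 fell, and the median was 0.23, where over all genes 18.4% rose and 19.7% fell. IRC5 rose 3.97-fold (log2 1.99, SE 0.18, adjusted p = 9.03e-04), from 260.7 ± 42.0 to 1031 ± 115 (SD, n = 3). RAD26, of transcription-coupled DNA repair, rose 2.91-fold (1.54, SE 0.18, adjusted p = 0.00108). Both kept a rise with the length trend removed.

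Of 18 histone chaperones and genes of H3 lysine 36 methylation, 9 rose, 1 fell and 8 did not pass, with a median of 0.40. The corresponding shares of all genes were 22.5% higher and 20.0% lower. Removing the length trend left 7 of the 18 higher and 2 lower, with a median of 0.25, beside 18.4% and 19.7% of all genes. SET2, the methyltransferase whose mark the Ioc4 PWWP domain reads, had control signals of 510.2, 364.9 and 401.7 and zymolyase signals of 859.1, 1251.1 and 1047.4. It rose 2.47-fold (log2 1.30, SE 0.20, adjusted p = 0.00232), beside an IOC4 change of -0.01. RLF2, the large subunit of the CAF-1 histone chaperone, rose 2.18-fold (1.13, SE 0.16). NAP1, a chaperone of H2A and H2B, fell 3.17-fold (-1.66, SE 0.33, adjusted p = 0.00551), from 1632 ± 264 to 554 ± 288 (SD, n = 3).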

How the data were processed

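The authors deposited linear-scale signal intensity made with MAS5, which the submitters' processing notes name. Its version, settings and detection calls are not given in the sources used here. The mean trimmed by 2% at each end was 500.2 to 500.3 on each array. Names and coding lengths came from the platform annotation and the R64 gene table, with the brightest probe set used for each of 47 genes with several. The other yeast species' probe sets gave a background (95th percentile) of at most 10.9, and the lowest signal of the 10 genes was 271.9.

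Log2 signal was fitted with limma 3.58.1 in R 4.3.3 (lmFit, eBayes with an intensity trend, Benjamini-Hochberg over 5449 genes) and tested on simulated data. Array number limits the precision. The genes and lists were chosen with earlier results of these data known. Named subunits are up to 2 largest rises and 2 largest falls per list, or the smallest p where none passed. DLS1, SWR1 and SWC7 were named after their values were seen, and the 5 pairs and the test of their differences were added then. RSC30 was not analysed here, and promoter motifs were not searched. Same-numbered arrays deviated together across genes (correlations 0.49, 0.20 and 0.41), which the labels do not explain, so a replicate block was fitted as an alternative. The main fit and the permutation tests are unpaired. Over the 10 genes alone the correlations were 0.11, 0.39 and -0.18.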

Additional observations from a re-analysis of the deposited data

How the results depend on the processing

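Over the 17 alternatives, of which leaving out both arrays numbered 1 was chosen after seeing the data, IOC3, ISW1, ISW2, ITC1, CHD1, SNF2 and STH1 rose past the threshold in each. INO80 turned negative with the length trend removed, with or without the replicate block (-0.24 in both). IOC4 ranged from -0.0537 to 0.0748 when single arrays were left out, positive without control array 3 (0.0748) or zymolyase array 2 (0.0504), and passed in no case. The count of falls among the 76 other genes ranged from 2 to 7 when single arrays were left out. With the replicate block 39 of the 76 rose and 7 fell, and over all genes 1702 rose and 1490 fell, against 1224 and 1092. The block ended no call of the 9 remodeller genes and added that of DPB4 among the named genes. Median centring took 0.16 from each change and gave 951 rises and 1463 falls over all genes, or 39.4% of calls higher in place of 52.8%. The cause of these shifts was not tested. All signals of the 10 genes lay above background, at 271.9 or more against at most 10.9.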
